A study of Mus musculus with 6 samples.

Results

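The genes described here are nuclear genes for subunits of the mitochondrial respiratory chain and ATP synthase. They were chosen by symbol alone: every row starting with Nduf, Sdha to Sdhd, Uqcr, Atp5 or Cox4 to Cox8, or equal to Cyc1 or Cycs, which gave 101 of the 22899 genes in the tables. RNA had been sequenced from CD4+ T cells, or helper T lymphocytes, taken by flow cytometry from the spleens of C57BL/6 mice, an inbred strain. Lean mice received a normal diet and obese mice a high-fat diet in which fat gave 60% of the energy, in general from 6 to 8 weeks of age and for up to 4 months. Each group had 3 libraries, and no transgene or further treatment is named for either. Whether a library holds the cells of 1 mouse or of a pool is not in the labels, so p-values measure only the spread between these libraries. Values are FPKM, the fragments of a gene relative to its transcript length and to all fragments mapped in that library, and read depth is unknown.

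The respiratory chain passes electrons from NADH through complex I, or from succinate through complex II, to coenzyme Q, complex III, cytochrome c and complex IV, where oxygen is reduced. Complexes I, III and IV pump protons, and complex V (ATP synthase) lets them return and makes ATP. Most subunits are encoded in the nucleus and imported, while a small set is encoded by mitochondrial DNA. In T cells the chain supplies most ATP at rest, and activation adds aerobic glycolysis while respiration is also needed for proliferation and memory.

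By complex, 38 of the 101 genes encode complex I, 4 complex II, 9 complex III, 19 complex IV and 16 complex V, and 1 encodes cytochrome c (Cycs). The complex IV genes include Ndufa4, whose product is now placed in that complex despite its name, and its paralogue Ndufa4l2. The literal prefix also takes in 12 assembly factors (Ndufaf1 to Ndufaf8 and Sdhaf1 to Sdhaf4), which help build complexes I and II without being part of them. The remaining 2 are Cox7a2l, a factor that joins complexes III and IV into supercomplexes, and Atp5s, which carries an ATP synthase name but is listed by RefSeq as Dmac2l. Of the 101 genes, 94 had 1 FPKM or more in 3 or more libraries and were tested. The other 7 were Ndufb4b, Cox7b2 and Cox8c, listed at 0 in all 6 libraries, and Cox8b, Cox4i2, Cox7a1 and Ndufa4l2, which lay below that level in most or all libraries. The mitochondrially encoded subunits had 0 rows in the tables and were not analysed here.

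None of the 94 tested genes passed the test between obese and lean libraries (limma, Benjamini-Hochberg adjustment over 10788 genes, threshold 0.05). In the same comparison 678 of the 10788 tested genes passed, which is 6.28%, with 622 higher and 56 lower in obese libraries. The smallest adjusted p among the respiratory chain genes was 0.0749, for Uqcrb. At an unadjusted p under 0.05 stood 9 of the 94 (9.57%), 5 higher and 4 lower in obese libraries, against 25.9% of all tested genes. All 3 obese libraries lay above all 3 lean ones for 8 of the 94 genes (8.51%), against 25.4% of all tested genes. The reverse held for 5 (5.32%), against 6.15%. A p that misses the threshold does not show that 2 levels are equal, so the width of the intervals matters. The 95% interval of the difference in log2(FPKM + 1) stayed within 1.5-fold in either direction for 90 of the 94 genes. The exceptions were Ndufb4c, Cox6a2, Cox6b2 and Atp5s. The interval stayed within 2-fold for 93, all but Ndufb4c. These are folds of FPKM + 1. For genes of a few FPKM, such as Cox6a2, Cox6b2 and Atp5s, the fold of FPKM itself can be larger. The intervals hold for FPKM as deposited and leave out the uncertainty of scaling between libraries. The median difference over the 94 genes was 0.00 as reported and −0.15 under median-of-ratios scaling. It was 0.11 with haemoglobin and immunoglobulin genes left out of the scaling.

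Differences are of log2(FPKM + 1), obese less lean, with the standard error (SE) from limma. Over the 94 genes they had a median of 0.00 and quartiles of −0.10 and 0.08, with 48 above 0 and 46 below. The extremes were −0.30 for Cox7a2l and 0.60 for Ndufb4c. Over all 10788 genes the median was 0.10 and the quartiles were −0.02 and 0.26, with 70.8% above 0. Of the 94 respiratory chain genes, 77 lay below the all-gene median. The FPKM of the 101 genes made up 1.87%, 1.86% and 1.77% of the summed FPKM in the lean libraries and 1.80%, 1.90% and 1.79% in the obese ones, so the groups overlapped in this share. In bulk RNA of this kind, fewer cells of a type and less RNA per cell cannot be told apart.

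**Figure D1:**
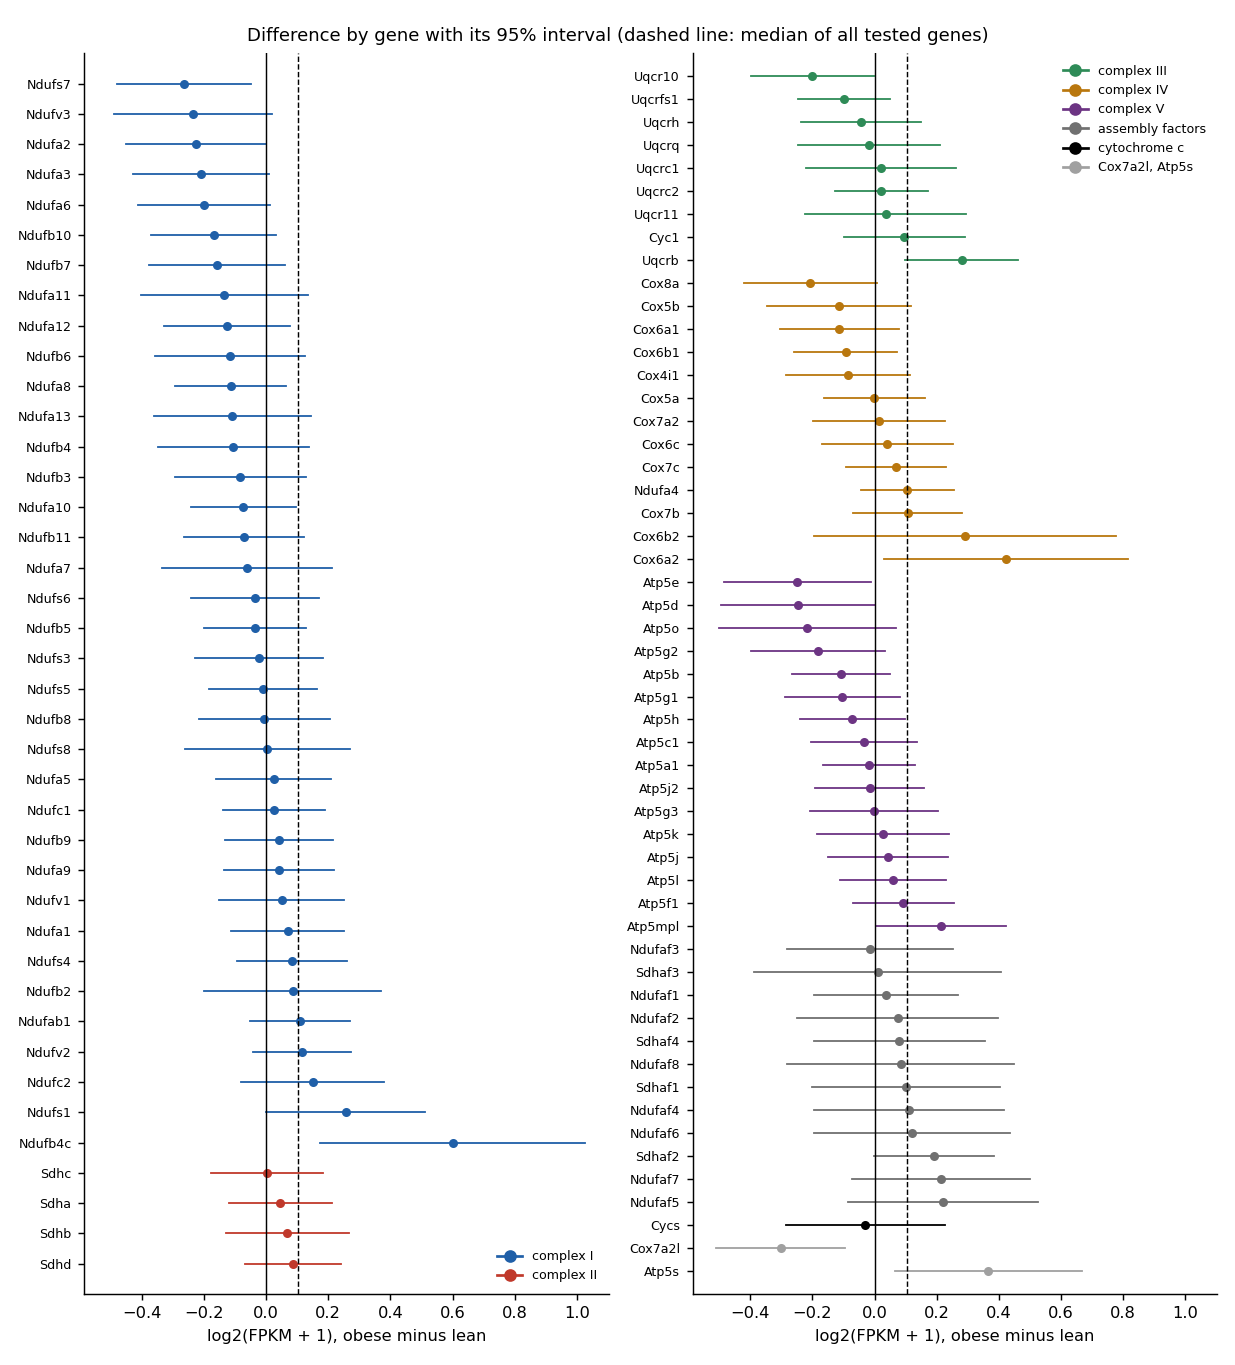
Difference between obese and lean libraries for 93 of the 94 tested genes, on the log2(FPKM + 1) scale, with its 95% interval, by complex (3 libraries per group). Most points lie within 0.30 of 0, most intervals cross 0, and the dashed line at 0.10 marks the median of all tested genes.

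The libraries held transcripts of other spleen cells, and several of these moved with the diet group. Summed FPKM of 7 T cell markers ran from 2335 to 2581 in the lean libraries and from 2047 to 2487 in the obese ones, and 0 of the 7 passed the limma test (0 at an unadjusted p under 0.05). For 11 erythroid markers the sum ran from 175 to 476 and from 4364 to 29052, and for 10 macrophage markers it was 288 to 315 and 756 to 964. All 10 tested erythroid and all 10 macrophage markers were called higher in obese libraries. Of 9 neutrophil markers 6 were called lower and 9 stood at an unadjusted p under 0.05, with sums of 597 to 866 and 153 to 454. Of 6 natural killer cell markers 4 were called lower and 5 stood at that p, with sums of 94.1 to 119 and 69.4 to 78.9. Of 6 plasma cell markers 1 was called higher, but all 6 stood at an unadjusted p under 0.05 (sums of 479 to 564 and 768 to 1393). Of 8 B cell markers 0 were called, 3 at an unadjusted p under 0.05 (337 to 726 and 479 to 904). The 2 CD8 T cell and 3 tested dendritic cell markers had 0 called and 0 at an unadjusted p under 0.05. No marker in these lists was at 0 in all libraries. Their part in the respiratory chain values was not tested. FPKM is a share of the library, so abundant transcripts lower the values of the rest. With haemoglobin and immunoglobulin genes left out of the scaling, the median over the 94 genes was 0.11 and that over all genes 0.21. This setting also brought the libraries to a common FPKM sum. That step with no gene left out (TPM scaling) gave 0.06 and 0.17, so only part of the shift came with leaving out those genes.

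Levels differed more between complexes than between diets. The median level over the tested genes of a complex, as a mean of 6 libraries, was 72.7 FPKM for complex I, 85.2 for complex II, 100.3 for complex III, 183 for complex IV and 241 for complex V, against 10.9 FPKM for the assembly factors. The highest gene of each complex was Ndufa3 at 198.7 FPKM in complex I, Sdhb at 105 in complex II, Uqcrh at 308 in complex III, Cox4i1 at 409.9 in complex IV and Atp5b at 477 in complex V. FPKM is scaled by length, so these levels can be set beside each other, although the scaling is uncertain for transcripts as short as these (median length 711 bases over 93 of the genes, against 2062 bases over 10659 tested genes).

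**Figure D2:**
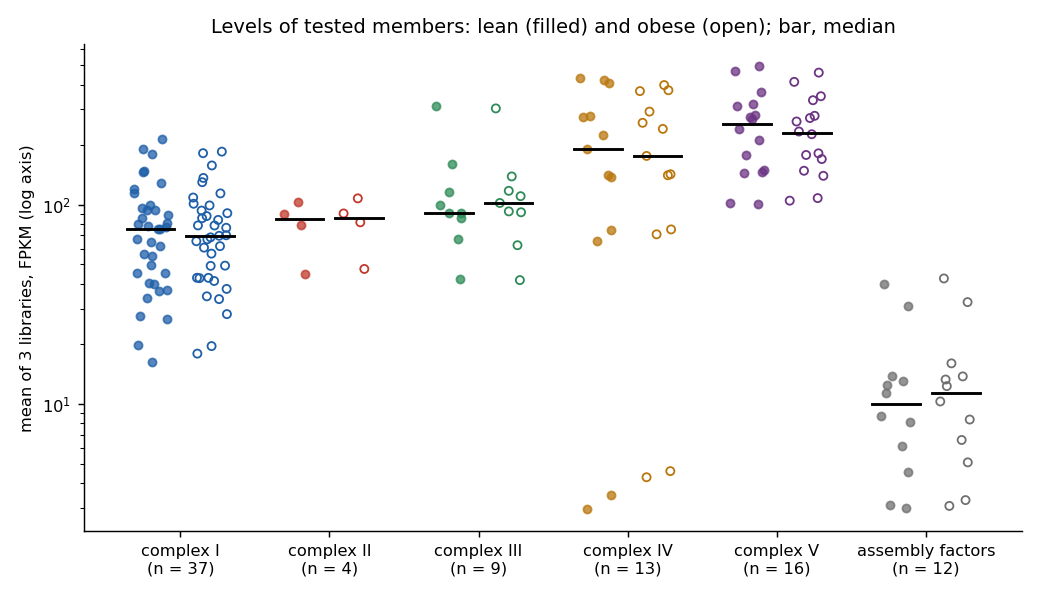
Mean FPKM of each tested gene (log axis) in lean (filled) and obese (open) libraries, with bars at the median of a class. Medians run from 72.7 FPKM in complex I to 241 in complex V over all 6 libraries, assembly factors sit near 10.9, and the 2 low points of complex IV are Cox6a2 and Cox6b2.

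For complex I, the NADH dehydrogenase and largest complex of the chain, 37 of 38 genes were tested, with 15 differences above 0 and 22 below. Their median was −0.04, which is −0.14 relative to the all-gene median. The 7 nuclear-encoded catalytic core subunits, which hold the NADH site, the iron-sulphur clusters and part of the coenzyme Q site, had a median of 0.01, with 5 of 7 above 0. The 30 accessory subunits had a median of −0.07, with 10 above 0. The 2 smallest p-values belonged to Ndufb4c and Ndufs7.

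Ndufs7 (chr10:80249105-80256794, GRCm38.p6), a core subunit next to the coenzyme Q site, stood at 95.7, 102 and 85.4 FPKM in the lean libraries and at 77.1, 86.3 and 72.1 FPKM in the obese ones. Obese 2 lay just above lean 3, so the groups overlapped. The difference was −0.26 ± 0.09 (SE, n = 3 per group), with a limma adjusted p of 0.130; it was −0.41 under median-of-ratios scaling and −0.16 without haemoglobin and immunoglobulin genes in the scaling. Ndufs1, the core subunit with the most iron-sulphur clusters, went the other way, with 18.2, 13.9 and 16.6 in the lean libraries and 20.6, 17.8 and 20.01 FPKM in the obese ones. Its groups overlapped too, since lean 1 lay above obese 2, and the difference was 0.26 ± 0.11 (SE) with an adjusted p of 0.194. The flavoprotein subunit Ndufv2 stood at 47.5, 44.9 and 44.1 in the lean libraries and 50.6, 48.3 and 49.1 FPKM in the obese ones, without overlap, and differed by 0.12 ± 0.07 (SE; adjusted p = 0.316). Its partner Ndufv1, which binds NADH, ranged from 35.5 to 42.7 FPKM over the 6 libraries with a difference of 0.05 ± 0.09. Of the other core subunits, Ndufs3 and Ndufs8 differed by −0.02 ± 0.09 and 0.00 ± 0.12.

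Ndufb4c had the largest difference of the 94 genes, and its value cannot be separated from that of Ndufb4. It stood at 27.5, 33.5 and 22.1 in the lean libraries and 41.3, 53.7 and 33.2 FPKM in the obese ones, where lean 2 lay above obese 3. The difference was 0.60 ± 0.19 (SE), with a 95% interval from 0.17 to 1.03 and an adjusted p of 0.0928. Ndufb4, an accessory subunit of the membrane arm, stood at 95.2, 87.3 and 98.4 in the lean libraries and 102, 77.7 and 82.6 FPKM in the obese ones, with a difference of −0.11 ± 0.11. In GENCODE vM21 (GRCm38) the Ndufb4c transcript (chr15:73809507-73809896, minus strand) is annotated as a processed pseudogene, while RefSeq lists the gene as protein coding. All 390 of its bases were identical to 390 bases of the Ndufb4 transcript (chr16:37647170-37654453, minus strand), starting at the first base of the Ndufb4 coding sequence. A read that falls inside this stretch therefore fits both genes equally well. The first 150 of these bases, identical in both transcripts and shown because they make the split between the genes uncertain, contain 0 differences.
Ndufb4 and Ndufb4c, bases 1 to 150: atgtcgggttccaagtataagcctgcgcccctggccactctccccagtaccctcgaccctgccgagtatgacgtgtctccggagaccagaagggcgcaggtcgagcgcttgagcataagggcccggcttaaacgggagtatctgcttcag
The sum of both genes was 122.74, 120.75 and 121 FPKM in lean and 143, 131 and 116 FPKM in obese libraries. The groups of this sum overlapped, and it differed by 0.10 on the log2(FPKM + 1) scale, close to the all-gene median of 0.10.

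Among the other accessory subunits of complex I, Ndufa6, which anchors the acyl carrier protein, was lower in every obese library. It stood at 181, 185 and 173 in the lean libraries and 171, 164 and 136 FPKM in the obese ones, and differed by −0.20 ± 0.09 (SE; adjusted p = 0.214). The acyl carrier protein itself, Ndufab1, was higher in every obese library, at 57.8, 58.1 and 53.0 in the lean libraries and 59.6, 62.4 and 60.2 FPKM in the obese ones, with a difference of 0.11 ± 0.07 (adjusted p = 0.353). The most abundant complex I transcript, Ndufa3 of the membrane arm, stood at 224, 225 and 191 in the lean libraries and 183, 202 and 168 FPKM in the obese ones, overlapping, with a difference of −0.21 ± 0.10. None of these differences passed the test.

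Complex II, succinate dehydrogenase, links the tricarboxylic acid cycle to the chain, and all 4 of its subunits were tested. All 4 differences lay above 0, with a median of 0.06, which is −0.05 relative to the all-gene median. The catalytic subunits were Sdha, which carries the flavin and stood at 78.9 ± 4.19 in the lean libraries and 81.4 ± 3.36 FPKM in the obese ones (SD, n = 3 each), and Sdhb, which carries the iron-sulphur clusters, at 103 ± 10.6 and 107 ± 3.90 FPKM. Of the membrane anchors, Sdhc stood at 90.1 ± 6.82 and 90.2 ± 4.03 FPKM. Sdhd, the other anchor, stood at 43.4, 45.5 and 45.1 in the lean libraries and 47.3, 46.2 and 49.0 FPKM in the obese ones, without overlap. Its difference of 0.09 ± 0.07 (SE) had an adjusted p of 0.449. The 95% intervals of the 4 subunits lay between −0.18 and 0.27.

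In complex III, the cytochrome bc1 complex, all 9 genes were tested, with 5 differences above 0 and 4 below and a median of 0.02, which is −0.08 relative to the all-gene median. Uqcrb (chr13:66900576-66905350, GRCm38.p6), a small accessory subunit close to the coenzyme Q site, had the smallest p of the 94 genes. It stood at 95.3, 83.8 and 92.5 FPKM in the lean libraries and at 103, 115 and 112 FPKM in the obese ones. Every obese library lay above every lean one, and the difference was 0.28 ± 0.08 (SE; 95% interval 0.10 to 0.46), with a limma adjusted p of 0.0749. Of the 50-base windows of its transcript, 43.4% also occur in 5 other annotated genes, so reads in them could have been shared out among copies. The difference of Uqcrb was 0.13 under median-of-ratios scaling, and 0.02 once a GC trend was removed from each library, a step described with the GC content.

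The 2 nuclear-encoded catalytic subunits of complex III lay on either side of 0. Cyc1, the cytochrome c1 haem protein, stood at 91.5, 89.0 and 76.7 in the lean libraries and 93.7, 93.9 and 86.8 FPKM in the obese ones, overlapping, with a difference of 0.10 ± 0.09. The Rieske iron-sulphur protein Uqcrfs1 stood at 64.9, 67.8 and 68.0 in the lean libraries and 61.9, 61.9 and 63.7 FPKM in the obese ones. Every obese value of Uqcrfs1 lay below every lean one, with a difference of −0.10 ± 0.07 and an adjusted p of 0.368. Uqcr10, another small accessory subunit, stood at 163, 169.7 and 145 in the lean libraries and 128, 148 and 139 FPKM in the obese ones, overlapping, and differed by −0.20 ± 0.09 (adjusted p = 0.191). The hinge protein Uqcrh, the most abundant of this complex, stood at 313 ± 20.6 in the lean libraries and 304 ± 23.1 FPKM in the obese ones (SD, n = 3 each). Cytochrome c itself, Cycs, which carries electrons from complex III to complex IV, stood at 27.3, 23.4 and 31.6 in the lean libraries and 25.9, 25.6 and 28.6 FPKM in the obese ones, a difference of −0.03 ± 0.11, or −0.18 under median-of-ratios scaling and −0.32 with a GC trend removed.

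In complex IV, cytochrome c oxidase, 13 of 19 genes were tested, since the 6 others were isoforms at or near 0. The tested genes had 7 differences above 0 and 6 below, with a median of 0.01, which is −0.09 relative to the all-gene median. Several subunits of this complex come as a common form and a form best known from muscle, testis or lung, and in all 6 libraries the common form made up nearly all of the pair. Cox4i2, the lung form, was 0.0181% to 0.106% of the summed FPKM of Cox4i1 and Cox4i2. The muscle form Cox6a2 was 0.568% to 1.34% of its pair with Cox6a1, and the muscle form Cox7a1 was 0% to 1.81% of its pair with Cox7a2. Cox6b2, the testis form, was 0.965% to 2.43% of its pair with Cox6b1. Ndufa4l2, a paralogue induced by hypoxia, was 0% to 0.0998% of its pair with Ndufa4. Cox8a stood at 363 to 463 FPKM over the 6 libraries, while Cox8b was at 0 in 5 libraries and at 0.15 FPKM in lean 3, and Cox8c was listed at 0 in all. Cox7b stood at 63.2 to 75.6 FPKM and its testis form Cox7b2 was listed at 0.

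Cox6a2 had the smallest p of this complex, at a low level: 3.42, 3.34 and 2.11 in the lean libraries and 3.57, 5.23 and 4.04 FPKM in the obese ones. The groups did not overlap, although lean 1 and obese 1 were close, and the difference was 0.42 ± 0.17 (SE; adjusted p = 0.168). Cox6a1, the common form, stood at 406, 442 and 369 in the lean libraries and 359, 385 and 379 FPKM in the obese ones, a difference of −0.11 ± 0.08. Cox8a stood at 453, 463 and 374 in the lean libraries and 363, 377 and 372 FPKM in the obese ones. Lean 3 sat among the obese values of Cox8a, and the difference was −0.21 ± 0.09 with an adjusted p of 0.204, or 0.0453 without lean 3 (0.00885 to 0.489 over 18 alternatives). Ndufa4 stood at 229.6, 218 and 220.2 in the lean libraries and 245, 238 and 236 FPKM in the obese ones, without overlap, with a difference of 0.11 ± 0.07 (adjusted p = 0.329). Cox7a1 was too low to be tested, at 0.60, 0.61 and 1.22 in the lean libraries and 0, 0.32 and 0.49 FPKM in the obese ones, and these did not overlap.

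Cox7a2l (chr17:83501917-83514333, GRCm38.p6), the supercomplex factor, is related to Cox7a2 but is not counted here among the subunits, and it had the lowest difference of the 94 genes. It stood at 465, 501 and 466 in the lean libraries and 423, 397 and 345 FPKM in the obese ones. Every obese library lay below every lean one, and the difference was −0.30 ± 0.09 (SE; 95% interval −0.51 to −0.09), with a limma adjusted p of 0.0865. Under median-of-ratios scaling it was −0.45, and without haemoglobin and immunoglobulin genes in the scaling −0.19. Cox7a2, the related complex IV subunit, stood at 77.9, 79.4 and 66.0 in the lean libraries and 76.9, 79.1 and 69.0 FPKM in the obese ones, which overlapped, with a difference of 0.01 ± 0.09. Whether the differences of Cox7a2l and Cox7a2 differ from each other was not tested. Atp5s, the other gene outside the complexes, stood at 1.37, 1.64 and 1.40 in the lean libraries and 1.80, 2.10 and 2.70 FPKM in the obese ones, without overlap, and differed by 0.37 ± 0.13 (adjusted p = 0.131).

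In complex V, the ATP synthase, all 16 genes were tested, with 5 differences above 0 and 11 below and a median of −0.03, which is −0.13 relative to the all-gene median. By part of the enzyme, the 5 genes of the F1 head and central stalk, where ATP is made, all lay below 0, with a median of −0.11. The 3 c ring genes, whose product forms the proton-driven rotor, also all lay below 0, with a median of −0.10. The 4 peripheral stalk genes had a median of −0.01 with 2 above 0, and the 4 other genes of the membrane part a median of 0.04 with 3 above 0. No gene of any of these parts passed the test. The shared signs in the F1 part and the c ring depended on the scaling. Under TPM scaling Atp5a1 differed by 0.04 and Atp5g3 by 0.06, while Atp5b, Atp5e, Atp5g1 and Atp5g2 stayed below 0.

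Of the F1 subunits, the catalytic beta subunit Atp5b stood at 496, 511 and 476 in the lean libraries and 449, 467 and 462 FPKM in the obese ones. These did not overlap, and the difference was −0.11 ± 0.07 (SE; adjusted p = 0.354). Its partner in the head, the alpha subunit Atp5a1, stood at 282 ± 2.68 in the lean libraries and 279 ± 7.63 FPKM in the obese ones (SD, n = 3 each), a difference of −0.02 ± 0.07. Atp5e, the epsilon subunit of the central stalk, stood at 262, 292 and 247 in the lean libraries and 244, 236 and 195 FPKM in the obese ones, without overlap, and differed by −0.25 ± 0.10 (adjusted p = 0.177). Atp5d, the delta subunit beside it, stood at 321, 349.9 and 264 in the lean libraries and 258, 279 and 246 FPKM in the obese ones, overlapping, and differed by −0.25 ± 0.11 (adjusted p = 0.194). Without lean 3, its lowest lean library, Atp5d was called lower. Atp5mpl, a small proteolipid of the membrane part, went the other way, at 159.7, 133 and 145 in the lean libraries and 179.6, 173 and 154 FPKM in the obese ones. Its groups overlapped, and the difference was 0.21 ± 0.09 (adjusted p = 0.186).

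The c ring is built from a single mature protein encoded by 3 genes that differ in their targeting peptides. Atp5g2 gave 56.0% to 60.3% of the summed FPKM of the 3 genes over the 6 libraries, Atp5g3 21.7% to 24.6% and Atp5g1 18.0% to 19.7%. The order was thus Atp5g2, Atp5g3 and Atp5g1 in every library. Atp5g2 stood at 478, 515 and 415 in the lean libraries and 409.8, 434 and 393 FPKM in the obese ones, overlapping, with a difference of −0.18 ± 0.09 (adjusted p = 0.260). For Atp5g3 the level differed by 0.00 ± 0.09, while its share was 22.9%, 21.7% and 22.3% in lean and 24.6%, 24.6% and 23.8% in obese libraries, without overlap; this share was not tested.

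The 12 assembly factors stood lower, from 3.09 FPKM (Sdhaf3) to 41.2 FPKM (Sdhaf1). Of their 12 differences 11 lay above 0, against 70.8% of all tested genes. Their median of 0.09 was −0.01 relative to the all-gene median, so these 12 lay nearer to it than the complexes did. None of the 12 passed the test. The 38 tested assembly factors outside the symbol rule had a lower median of 0.02, with 21 above 0. Sdhaf2, which attaches the flavin to Sdha, did not overlap between groups, at 14.4, 13.1 and 14.0 in the lean libraries and 15.4, 15.7 and 16.8 FPKM in the obese ones, and differed by 0.19 ± 0.09 (adjusted p = 0.198). Ndufaf5, which hydroxylates Ndufs7, and Ndufaf7, a methyltransferase, differed by 0.22 ± 0.13 and 0.21 ± 0.13, with overlapping groups.

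Levels of whole complexes also varied between libraries of 1 diet group. The mean log2(FPKM + 1) over the complex I genes was 6.18, 6.15 and 5.98 in lean and 6.10, 6.14 and 6.00 in obese libraries, so lean 3 and obese 3 were low. For complex III the means were 6.74, 6.71 and 6.58 in lean and 6.67, 6.76 and 6.64 in obese libraries. Complex IV had 6.88, 6.83 and 6.69 in lean and 6.81, 6.88 and 6.82 in obese libraries, and complex V 7.88, 7.87 and 7.75 in lean and 7.79, 7.86 and 7.69 in obese libraries. Lean 3 was the lowest lean library in each of these, and lean and obese libraries overlapped in every class, complex II and the assembly factors included. The replicates of a group have no order, and the labels name no batch.

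**Figure D3:**
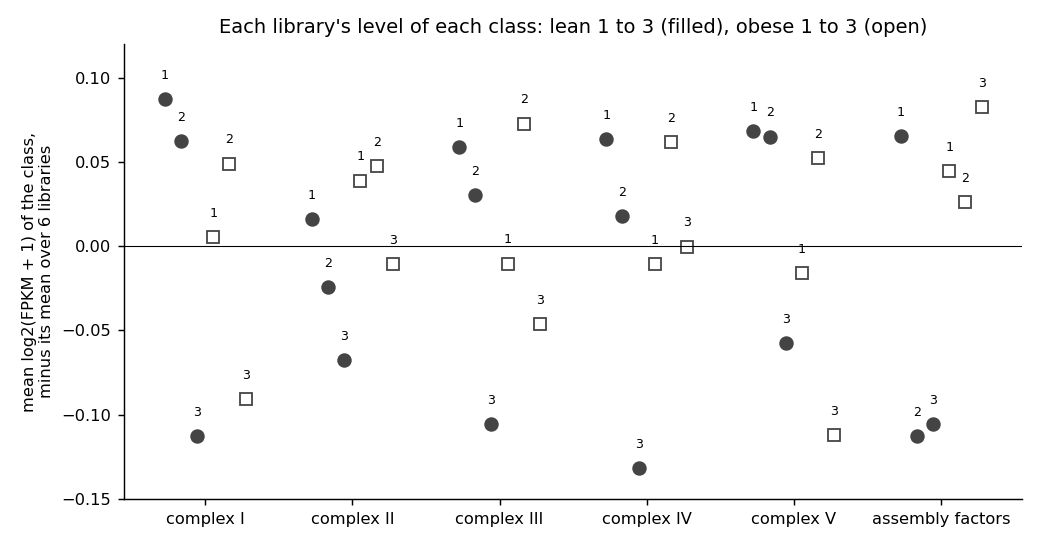
Mean log2(FPKM + 1) of each class in each library, less the mean of that class over the 6 libraries. Lean 3 is the lowest lean library in complexes I to V, and lean and obese libraries overlap in all 6 classes.

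The differences were lower for transcripts of higher GC content. Over 93 of the genes with a GENCODE transcript, the Spearman correlation of the difference with GC content was −0.467, and over 10659 tested genes it was −0.358. These are descriptions across genes that share the same 6 libraries. With transcript length the correlations were 0.150 and 0.167. All genes were divided into 5 equal bins of GC content. In the lowest bin (33.2% to 45.3%), the 10 respiratory chain genes had a median difference of 0.10 and all genes 0.25. In the highest bin (56.3% to 71.3%), the 15 respiratory chain genes had a median of −0.11 and all genes 0.01. In each of the 5 bins the respiratory chain genes had the lower median. The relation to GC also varied between libraries of 1 group. Over the same genes, the deviation from the 6-library mean correlated with GC at 0.437, 0.677 and −0.342 in the lean libraries and at −0.292, −0.0822 and −0.500 in the obese ones. Uqcrb has a GC content of 42.2%, and Ndufs7 60.2%. The part of base composition in single differences was not tested beyond the removal of a GC trend from each library. This step was added after the data were seen. It also centred all genes, whose median was then −0.001, against 0.10 as reported. The median over the 93 genes was −0.10 under it. Less the all-gene median this was −0.10, the same as reported without the step. With the trend removed 1 gene, Cycs, was called lower, with a difference of −0.32.

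**Figure D4:**
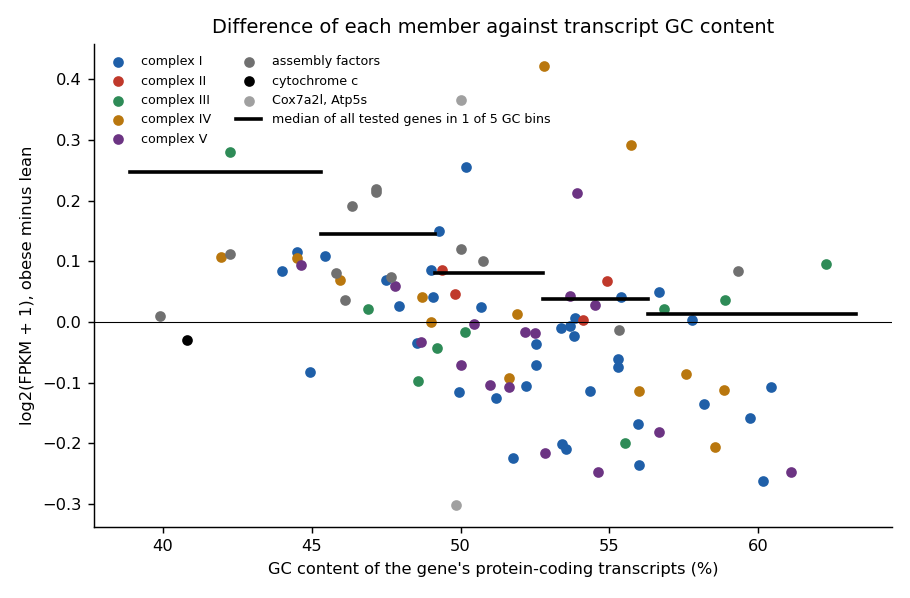
Difference of each gene against the GC content of its protein-coding transcripts, coloured by class, with black bars at the median of all tested genes in each of 5 bins of GC content (the outer bars are drawn only across the plotted range). Points run lower towards high GC, and bars fall from 0.25 to 0.01.

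Mapping to copies is a further limit on single genes of this family, which has many processed pseudogenes. Of 99 genes with a GENCODE transcript, 51 shared at least 1 window of 50 bases with another annotated gene. Over 25% of the windows were shared in 16 genes and over 50% in 3. Matches to any annotated gene on either strand were counted, so these are not counts of copies alone. Ndufb6 shared windows with Smim27, and Atp5f1 with Wdr77 among others. Ndufaf7 shared 2.82% of its windows, with 591 other genes. The highest share was 84.8%, for Atp5l, a subunit of the membrane part of complex V, whose windows also occur in 14 other genes. For Cox7a2l the share was 17.7%, and for Ndufs7, Uqcr10, Atp5e, Atp5mpl and Atp5s it was 0%. How the authors' counting dealt with such reads is not given in the sources used here.

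Nuclear respiratory chain genes are known targets of NRF1, of the ETS factor GABP and of YY1, with co-activators of the PGC-1 family. Of 18 regulators in the list, 17 were tested and 0 passed (limma; 1 at an unadjusted p under 0.05), with a median difference of 0.05. Ppargc1a, which encodes PGC-1 alpha, stood at 0.04 to 0.10 FPKM and was not tested, while its relative Ppargc1b stood at 1.82 to 2.51 FPKM. Nrf1 stood at 21.8, 20.6 and 24.98 in the lean libraries and 21.0, 21.9 and 23.5 FPKM in the obese ones, a difference of −0.02 ± 0.09 (SE). Gabpa, the DNA-binding subunit of GABP, stood at 6.04, 5.40 and 8.46 in the lean libraries and 7.54, 7.63 and 9.29 FPKM in the obese ones, overlapping, and differed by 0.28 ± 0.16 (adjusted p = 0.291). Yy1, Esrra and Tfam, the last a factor for mitochondrial DNA, differed by 0.03 ± 0.11, −0.01 ± 0.10 and 0.03 ± 0.11.

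Promoter windows of 250 bases before to 50 after the start (RefSeq, GRCm38.p6) were found for 82 of the 101 genes and searched on both strands for a core of each factor. The NRF1 core, written GCGCANGCG or CGCNTGCGC, was in 25 of the 82 (30.5%), against 15.9% of tested genes and 7.03% of all genes with a window. The ETS core CCGGAAG was in 21 (25.6%), against 21.9% and 9.93%, and the YY1 core AAGATGGCG in 8 (9.76%), against 3.93% and 1.64%. The ETS and YY1 cores share the letters AAG at one end and can overlap there, and 34 genes held 1 of the 3 kinds, 10 held 2 and 38 held none. By complex, the NRF1 core was in 8 of 33 windows of complex I, 2 of 3 of complex II, 2 of 5 of complex III, 1 of 13 of complex IV and 7 of 14 of complex V. The median difference between obese and lean libraries was −0.01 for the 25 tested genes with the NRF1 core and −0.01 for the 53 without. It was 0.01 with and −0.01 without the ETS core, and 0.03 with and −0.01 without the YY1 core. A match is a description of letters, not a bound site. The windows of Cycs, Sdhd and Ndufs7 are shown 5′ to 3′ on the strand of the gene, since they hold different sets of the 3 cores. Capitals mark the matched core, on either strand.
Cycs, chr6:50566520-50566819, minus strand, NRF1 core: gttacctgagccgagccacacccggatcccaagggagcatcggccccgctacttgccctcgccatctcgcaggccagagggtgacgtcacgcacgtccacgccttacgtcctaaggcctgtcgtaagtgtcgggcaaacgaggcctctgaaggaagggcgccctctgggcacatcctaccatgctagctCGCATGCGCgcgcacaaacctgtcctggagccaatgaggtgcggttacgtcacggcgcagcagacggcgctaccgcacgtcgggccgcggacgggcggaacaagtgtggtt
Sdhd, chr9:50603800-50604099, minus strand, NRF1 and ETS cores: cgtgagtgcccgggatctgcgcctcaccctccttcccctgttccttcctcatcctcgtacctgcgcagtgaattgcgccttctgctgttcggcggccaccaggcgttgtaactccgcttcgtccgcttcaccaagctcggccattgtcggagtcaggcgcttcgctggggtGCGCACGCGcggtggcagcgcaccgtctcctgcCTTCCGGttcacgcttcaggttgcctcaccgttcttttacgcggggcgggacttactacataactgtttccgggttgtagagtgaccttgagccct
Ndufs7, chr10:80249199-80249498, plus strand, YY1 core: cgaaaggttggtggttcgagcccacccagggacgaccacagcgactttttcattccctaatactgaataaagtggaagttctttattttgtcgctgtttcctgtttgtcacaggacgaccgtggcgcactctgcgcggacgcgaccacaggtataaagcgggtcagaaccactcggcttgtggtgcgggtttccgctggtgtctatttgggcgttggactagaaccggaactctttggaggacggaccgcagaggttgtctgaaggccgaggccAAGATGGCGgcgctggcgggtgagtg
The 3 windows thus hold different sets of cores, although Cycs and Sdhd share the NRF1 core. The differences of their genes were −0.03 for Cycs, 0.09 for Sdhd and −0.26 for Ndufs7, none of which passed the test. With the GC trend removed they were −0.32 for Cycs, −0.02 for Sdhd and −0.26 for Ndufs7. Cycs then passed (limma adjusted p = 0.0378, against 0.0378 to 0.996 over 18 alternatives). The same step took the all-gene median from 0.10 to −0.001.

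Other genes around the chain were read as lists. Among 38 tested assembly factors outside the symbol rule, 0 were called higher and 1 lower, with a median of 0.02. That gene was Sco2, a copper chaperone of complex IV, at 21.7, 25.2 and 21.6 in the lean libraries and 16.6, 16.4 and 13.8 FPKM in the obese ones, with a difference of −0.52 ± 0.10 and an adjusted p of 0.0228. In the list of 14 tested exchange and coupling genes 0 were called (limma; 4 at an unadjusted p under 0.05), with a median of 0.11. Of these, Atpif1, the inhibitor of ATP synthase, stood at 27.3, 22.0 and 21.7 in the lean libraries and 34.0, 29.3 and 46.2 FPKM in the obese ones, without overlap, with a difference of 0.59 ± 0.16 and an adjusted p of 0.0672. The uncoupling protein family member Ucp2 stood at 875, 858 and 630.3 in the lean libraries and 936, 990.2 and 943 FPKM in the obese ones, also without overlap, with a difference of 0.29 ± 0.13 (adjusted p = 0.185).

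None of the 18 tested tricarboxylic acid cycle genes (median 0.03), the 13 coenzyme Q synthesis genes (0.03), the 18 import genes (−0.12), the 78 mitochondrial ribosomal protein genes (−0.01) and the 37 proteasome genes (0.05) passed the limma test. At an unadjusted p under 0.05 stood 2, 0, 4, 9 and 7 of them. The 82 tested cytosolic ribosomal protein genes had a median of −0.30 with 2 above 0, 57 at an unadjusted p under 0.05, and 3 were called lower: Rpl28 (−0.43 ± 0.10), Rpl37 (−0.43 ± 0.09) and Rps27 (−1.72 ± 0.41). Respiratory chain genes, with 51.1% above 0, thus lay between the cytosolic ribosomal proteins and the bulk of tested genes in these values. So did the mitochondrial ribosomal protein genes, with 38 of 78 above 0, and the import genes, with 5 of 18. The tricarboxylic acid cycle, coenzyme Q synthesis and proteasome genes had 13 of 18, 10 of 13 and 24 of 37 above 0.

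**Figure D5:**
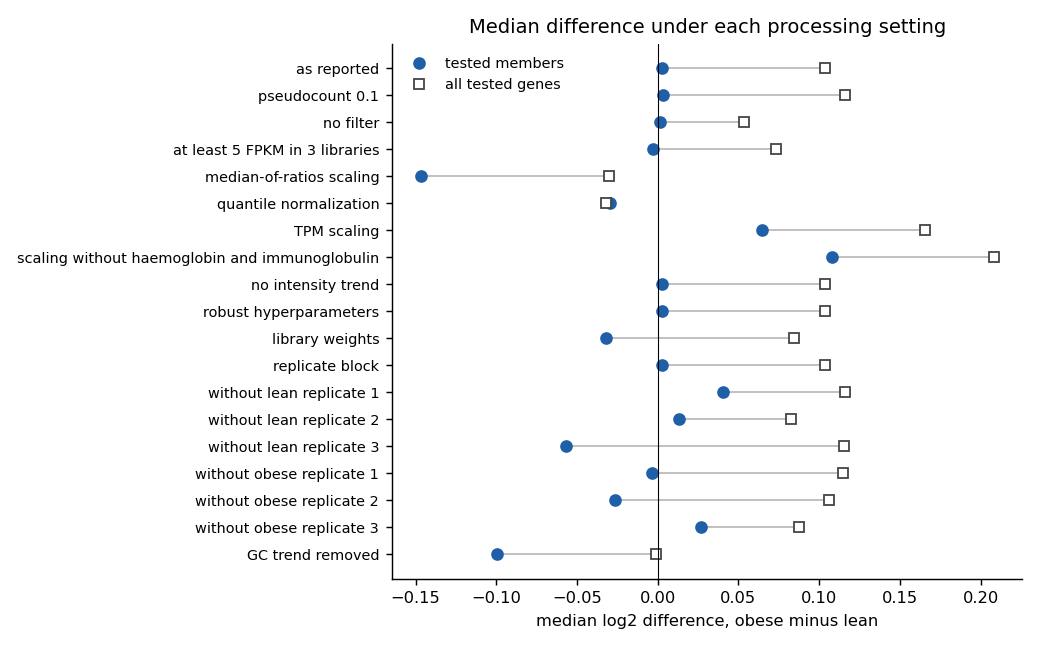
Median difference of the tested respiratory chain genes (circles) and of all tested genes (squares) under each processing setting, on the log2 scale. The circle lies below the square in all settings shown other than quantile normalization, where both lie at −0.03, and its side of 0 varies with the scaling.

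Scaling shifted these values. The all-gene median moved from 0.10 to −0.03 under median-of-ratios scaling and quantile normalization, to 0.17 under TPM scaling and to 0.21 without haemoglobin and immunoglobulin genes. The median of the respiratory chain genes less that of all genes was −0.10 as reported, −0.12 under median-of-ratios scaling, −0.10 under TPM scaling and −0.10 without haemoglobin and immunoglobulin genes, but 0.00 under quantile normalization. It was −0.05 with no filter, −0.17 without lean 3 and −0.06 without obese 3. The number above 0 went from 48 of 94 genes to 33 without lean 3, 57 without lean 1, 10 under median-of-ratios scaling, 38 under quantile normalization, 63 under TPM scaling and 73 without haemoglobin and immunoglobulin genes. Under the last of these, Uqcrb and Ndufb4c were called higher, with adjusted p-values of 0.0337 and 0.0402. Over 18 alternatives the adjusted p of Uqcrb ran from 0.0173 to 0.906, and over 17 alternatives that of Ndufb4c from 0.00416 to 0.202.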

How the data were processed

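FPKM values were deposited by the authors in 1 table per library, each with 22899 genes, of which 1116 have no symbol. Per the submitters' processing notes, which give no versions, the tools were Bowtie and RSEM and the builds GRCm38 and mm10. Annotation release, strand setting and filters: not given in the sources used here. Only FPKM values were available, so depth is unknown and precision comes from the spread between libraries alone.

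The 10788 genes at 1 FPKM or more in 3 or more libraries were tested on log2(FPKM + 1) with limma 3.58.1 in R 4.3.3 (lmFit, eBayes with an intensity trend), 3 lean against 3 obese libraries, 2-sided, with Benjamini-Hochberg adjustment over all tested genes and calls under 0.05. The test was first tested on simulated data. The respiratory chain genes, the other lists and the naming rule were chosen with earlier results of these data known. The rule names called members, the 2 smallest p-values in each complex, the nuclear-encoded catalytic core, tissue isoforms, the highest gene of each complex and called genes of the lists. Ndufa6, Ndufab1, Ndufb4, Atp5d, Atp5s, the named assembly factors, Atp5l, Atpif1, Ucp2 and the named regulators were added after their values were seen. Gene coordinates, names and promoter windows are from RefSeq (GRCm38.p6), where all 101 members matched. Transcripts, GC content and shared 50-base windows are from GENCODE vM21. Alternatives were another pseudocount, other filters, scalings and variance models, weights per library, a block by replicate number, and leaving out each library. The plot of differences by gene leaves out 1 tested gene, which is not reported here, though counts and medians include it.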

Additional observations from a re-analysis of the deposited data

How the results depend on the processing

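No respiratory chain gene was called under another pseudocount, no filter, a 5 FPKM minimum, median-of-ratios, quantile or TPM scaling, no intensity trend or robust hyperparameters, or without any 1 library other than lean 3. Scaling without haemoglobin and immunoglobulin called 2 higher (Ndufb4c, Uqcrb). Library weights called 3 higher and 12 lower, with 3116 genes called in all. Removing a GC trend, added after seeing the data, called 1 lower (Cycs). Leaving out a library called 0 to 2 lower, the 2 being Atp5d and Cox8a without lean 3; the count over all genes ran from 318 without lean 2 (326 without lean 1) to 698 without lean 3. That count was 368 with no filter, 352 at a 5 FPKM minimum and 434 with quantile normalization. With the replicate block 1 gene was called higher (Ndufb4c) and 1 lower (Ndufs7), with 1015 called in all, but same-numbered libraries correlated at only 0.032, 0.061 and 0.193 and need not be paired; lean 1 and lean 2 correlated better with other numbers.

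Medians of complexes I to V were −0.185, −0.0934, −0.130, −0.137 and −0.177 under median-of-ratios scaling, and 0.0712, 0.164, 0.128, 0.1199 and 0.0813 without haemoglobin and immunoglobulin. With the GC trend removed, complexes II to V had −0.0337, −0.106, −0.109 and −0.125. The all-gene median was then −0.00101, against 0.104 as reported. TPM scaling gave complex II 0.119. With 1 library left out, complex I ran from −0.0874 without lean 3 to 0.0055 without obese 3, complex II from 0.0400 to 0.0711, complex III from −0.0590 without lean 3 to 0.0409 without lean 1, complex IV from −0.0430 without lean 3 to 0.0712 without obese 3, and complex V from −0.0738 without lean 3 to −0.0036 without lean 1, so complexes I, III and IV changed sign. The cause of these shifts was not tested. As no respiratory chain gene passed as reported, a change of sign in one was not counted as a reversal. For the genes named by the rule, values under the alternatives moved by less than the spread within groups in 564 cases, which can still hold a change of sign (Ndufs8 −0.15 under median-of-ratios scaling), by more in 67, and passed the threshold in 14. Outside the rule, Atp5d passed without lean 3. With library weights Atp5d, Atp5s, Ndufa2, Ndufa12, Ndufb6, Ndufb7 and Ndufb10 passed.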
